A study of Mus musculus with 8 samples.

Results

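The 9 genes described here encode amino acid transporters known from the mammary gland: Slc7a5, Slc3a2, Slc38a1, Slc38a2, Slc1a4, Slc1a5, Slc7a1, Slc6a6 and Slc6a9. They were chosen by name, with earlier results of these data known. Their probes were found through the accession that the array design gives each probe. All 9 had a probe, of 18749 genes with a probe, and all 9 were among the 14137 genes tested. RNA came from the No. 4 mammary gland of C57/Bl6 females at lactation day 1. Arrays of 4 wild-type (WT) samples were compared with arrays of 4 samples from dams lacking Th-POK (KO). The paper calls the samples biological replicates and names no number of dams per array. Th-POK is a zinc finger transcription factor encoded by Zbtb7b and is best known for setting the CD4 lineage of T cells. The methods describe a knockout line and name no mammary-restricted deletion, so the cells of the gland other than epithelium lacked the gene as well. The ages of the dams are not given in the sources used here. The values are log2 signals of one-colour arrays after quantile normalization, and a difference is KO minus WT on that scale. A gene is called where the adjusted p of limma, corrected by the Benjamini-Hochberg method over all genes tested, was under 0.05.

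The lactating epithelium takes amino acids from blood across its basolateral membrane and builds them into casein and whey proteins. Several carriers share this work. Sodium-coupled carriers pull small neutral amino acids such as glutamine and alanine into the cell, exchangers then trade these for leucine and other large neutral amino acids, and separate carriers bring in cationic amino acids, taurine and glycine. When amino acids run short, the factor ATF4 raises the transcription of many of these carriers.

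The label check came first. Zbtb7b had log2 signals of 9.90, 10.42, 10.13 and 10.23 on WT arrays 1 to 4 and of 1.55, 1.56, 1.65 and 1.6 on KO arrays 1 to 4. It was not well above background on any KO array, so the difference is a limit, at least 81.5-fold lower in KO (limma adjusted p = 5.71e-09). This limit sets the WT mean against the dimmest probe that each KO array still placed well above background. Whether the probe lies in the deleted part of the gene is not given in the sources used here. Between 67.1% and 75.6% of spots were well above background on the 8 arrays and no spot was saturated. All WT arrays were on 1 slide with 1 scan and all KO arrays on another, so slide and genotype cannot be told apart in any comparison below. The labelled tissue carried its defining genes, with the mean log2 signal of 7 casein and whey genes between 16.91 and 17.30 on WT arrays and between 16.76 and 17.36 on KO arrays, and 0 of these 7 were called by limma, nor did any have an unadjusted p under 0.05.

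Of the 9 transporter genes, 5 were called, 2 higher and 3 lower in KO. Slc38a1 and Slc6a6 rose, and Slc7a1, Slc7a5 and Slc38a2 fell. Among all genes tested 16.5% were called, 7.53% higher and 8.96% lower. Since the 9 were chosen with earlier results of these data known, this contrast is no independent evidence about the list. The genotypes did not overlap for 3 of the 9 (Slc38a1, Slc7a1 and Slc6a6), where the share among all genes was 24.1%. The median difference of the 9 was -0.20, against -0.02 for all genes tested. The plot of signals by array shows each of the 9 genes.

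**Figure D1:**
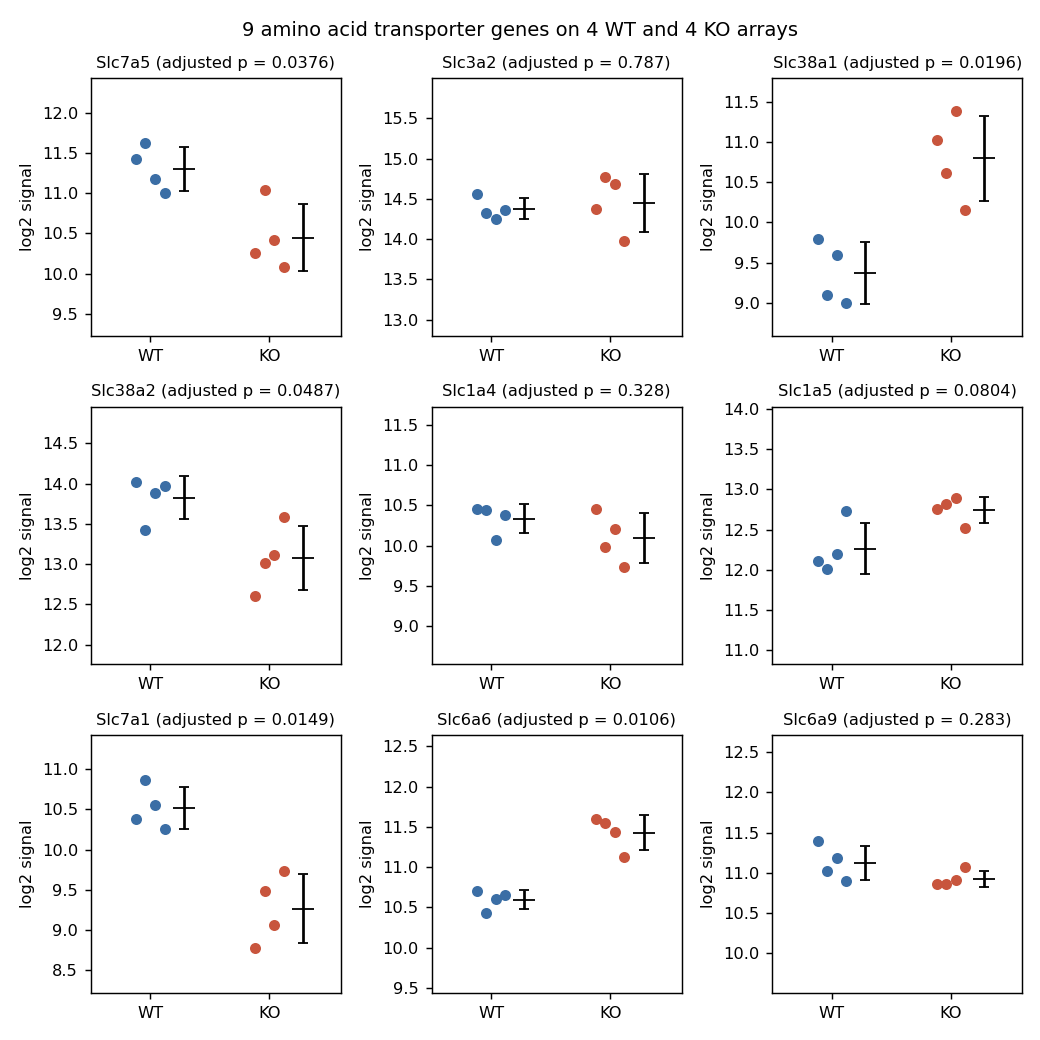
Log2 signal (vertical axis, each panel spanning the same range in log2 units) of the 9 transporter genes on 4 WT arrays (blue) and 4 KO arrays (red), with the mean and SD of each genotype in black. Slc38a1, Slc7a1 and Slc6a6 separate the genotypes, and Slc7a5 and Slc38a2 are lower in KO with 1 pair of arrays crossing.

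Both exchanger subunits of large neutral amino acids were measured. Slc7a5 encodes LAT1, the light chain that exchanges leucine and other large neutral amino acids for glutamine. Its log2 signal was 11.42, 11.62, 11.18 and 11.00 on WT arrays 1 to 4 and 10.26, 11.04, 10.42 and 10.08 on KO arrays 1 to 4. KO array 2 reached the level of WT array 4, and the other 3 KO arrays were below every WT array. The difference was -0.85 (SE 0.22, 95% interval -1.36 to -0.34, limma adjusted p = 0.0376), which put KO at 0.555 of the WT level (95% interval 0.390 to 0.791). This call rests on small margins. Without WT array 1, 2 or 3 the limma adjusted p was 0.0572, 0.100 and 0.0715, and without KO array 1, 3 or 4 it was 0.0920, 0.0942 and 0.0644.

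Slc3a2 encodes 4F2hc, also called CD98, the heavy chain that carries LAT1 and related light chains to the cell surface. On WT arrays 1 to 4 it had log2 signals of 14.56, 14.33, 14.25 and 14.36, and on KO arrays 1 to 4 of 14.37, 14.77, 14.69 and 13.98. The KO arrays lay on both sides of the WT arrays. The difference was 0.08 (SE 0.18, 95% interval -0.33 to 0.49, limma adjusted p = 0.787), and its sign turned under another scaling.

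The sodium-coupled carriers of small neutral amino acids moved in opposite directions. Slc38a1, which encodes SNAT1, a glutamine and alanine carrier, had log2 signals of 9.80, 9.10, 9.60 and 9.0 on WT arrays 1 to 4. KO arrays 1 to 4 gave 11.02, 10.62, 11.39 and 10.15. Every KO array was above every WT array. Slc38a1 rose by 1.42 (SE 0.29, 95% interval 0.76 to 2.07, limma adjusted p = 0.0196), a 2.67-fold higher level (95% interval 1.70 to 4.20), and 2.87% of the genes tested had a difference of at least this size in either direction. Without WT array 2, KO array 1 or KO array 3 its limma adjusted p was 0.0543, 0.0549 and 0.0526.

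Slc38a2 encodes SNAT2, the carrier of this group whose gene is known to be induced when amino acids are scarce. It had log2 signals of 14.02, 13.43, 13.89 and 13.97 on WT arrays 1 to 4 and of 12.61, 13.01, 13.11 and 13.58 on KO arrays 1 to 4. KO array 4 was above WT array 2, and the remaining KO arrays were below all WT arrays. The gene fell by 0.75 (SE 0.22, 95% interval -1.24 to -0.25, limma adjusted p = 0.0487), to 0.596 of the WT level (95% interval 0.423 to 0.839). Leaving out WT arrays 1 to 4 in turn gave limma adjusted p of 0.0784, 0.0559, 0.102 and 0.0937, and leaving out KO arrays 1 to 3 gave 0.102, 0.104 and 0.107. In the RefSeq gene table of GRCm38.p6, Slc38a1, Slc38a2 and Slc38a4 follow each other on chromosome 15 with 0 protein-coding genes between neighbours. Slc38a4, the next gene in that row, differed by 0.60 (limma adjusted p = 0.0737).

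Slc1a4 and Slc1a5 encode ASCT1 and ASCT2, sodium-dependent exchangers of alanine, serine and cysteine, of which ASCT2 also carries glutamine. Slc1a4 had log2 signals of 10.46, 10.44, 10.07 and 10.38 on WT arrays 1 to 4 and of 10.46, 9.98, 10.21 and 9.73 on KO arrays 1 to 4. The genotypes overlapped and the difference was -0.25 (SE 0.17, 95% interval -0.64 to 0.14, limma adjusted p = 0.328).

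For Slc1a5 the signals were 12.11, 12.01, 12.20 and 12.73 on WT arrays 1 to 4 and 12.75, 12.82, 12.89 and 12.52 on KO arrays 1 to 4. WT array 4 stood among the KO arrays, and the other 3 WT arrays were below all of them. The difference was 0.48 (SE 0.17, 95% interval 0.10 to 0.86, limma adjusted p = 0.0804), and it was 0.63 with a limma adjusted p of 0.0254 without WT array 4.

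Slc7a1 encodes CAT1, the main uptake route for arginine, lysine and ornithine in many cells. WT arrays 1 to 4 had log2 signals of 10.38, 10.86, 10.56 and 10.26, and KO arrays 1 to 4 had 8.78, 9.49, 9.06 and 9.74. The lowest WT array was above the highest KO array by 0.52. Slc7a1 fell by 1.25 (SE 0.22, 95% interval -1.76 to -0.74, limma adjusted p = 0.0149), to 0.420 of the WT level (95% interval 0.295 to 0.599). Its call held under all 16 alternative settings, 8 of which leave out 1 array, with limma adjusted p between 0.0131 and 0.0487.

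Slc6a6 encodes TauT, the sodium- and chloride-dependent taurine carrier. Its log2 signals were 10.70, 10.43, 10.60 and 10.65 on WT arrays 1 to 4 and 11.60, 11.55, 11.44 and 11.12 on KO arrays 1 to 4. All KO arrays were above all WT arrays, with a gap of 0.42. Slc6a6 rose by 0.83 (SE 0.13, 95% interval 0.54 to 1.13, limma adjusted p = 0.0106), a 1.78-fold higher level (95% interval 1.45 to 2.19), and its call held under all 16 settings as well.

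Slc6a9 encodes GlyT1, the glycine carrier of the same family. It had signals of 11.39, 11.02, 11.19 and 10.90 on WT arrays 1 to 4 and of 10.86, 10.86, 10.91 and 11.07 on KO arrays 1 to 4. The genotypes overlapped, and the difference was -0.20 (SE 0.13, 95% interval -0.49 to 0.09, limma adjusted p = 0.283).

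The probes of these genes were then tested one by one. The array held 18 probes for the 9 genes, 17 passed the filter on dim signals, and 10 were called, 6 higher and 4 lower, where 14.5% of all probes were called. No gene had tested probes of opposite direction among the 6 genes with more than 1. The 4 tested probes of Slc38a1 were all called, with differences between 1.33 and 1.48. The remaining Slc38a1 probe was well above background on 1 WT array and 3 KO arrays and was not tested. Both probes of Slc7a1 were called (-1.25 and -0.92, limma adjusted p = 0.0151 and 0.0424), as were both of Slc6a6 (0.83 and 0.68, limma adjusted p = 0.0116 and 0.0344). For Slc38a2, the brightest probe had a limma adjusted p of 0.0508 in this fit, and its second probe, with a difference of -0.77, had 0.0247 and no overlap between genotypes. Slc7a5, Slc1a5 and Slc6a9 had 1 probe each and no second measurement.

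**Figure D2:**
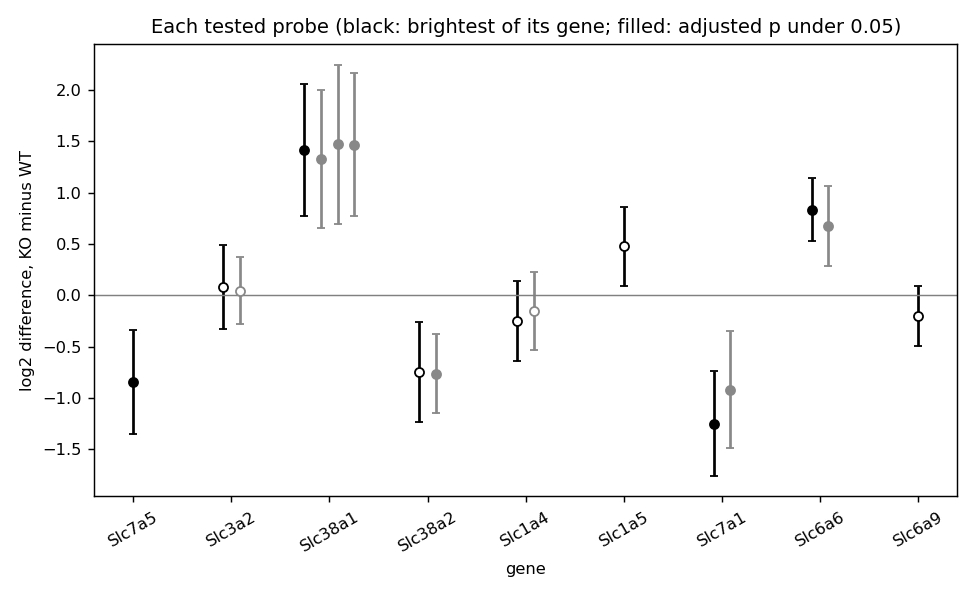
Difference between genotypes (vertical axis, KO minus WT, log2) for each of the 17 tested probes by gene, with 95% intervals. Black marks the brightest probe of a gene and grey the others, filled points have an adjusted p under 0.05, and the 4 probes of Slc38a1 lie between 1.33 and 1.48.

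Next, related genes were compared within each array, which shows unequal change and no ratio of molecules. The 3 pairs were chosen after the values had been seen, so they are described with no test. Slc7a5 minus its heavy chain Slc3a2 was -3.15, -2.71, -3.08 and -3.36 on WT arrays 1 to 4 and -4.10, -3.73, -4.27 and -3.89 on KO arrays 1 to 4. The mean was -3.07 ± 0.27 (SD, n = 4) in WT and -4.00 ± 0.24 in KO, and the genotypes did not overlap.

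Slc38a1 minus Slc38a2 was -4.22, -4.32, -4.29 and -4.97 on WT arrays 1 to 4 and -1.59, -2.40, -1.72 and -3.43 on KO arrays 1 to 4. The genotypes did not overlap and the mean was -4.45 ± 0.35 (SD, n = 4) in WT and -2.28 ± 0.84 in KO. For Slc1a4 minus Slc1a5 the mean was -1.92 ± 0.37 (SD, n = 4) in WT and -2.65 ± 0.25 in KO, and the genotypes overlapped.

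**Figure D3:**
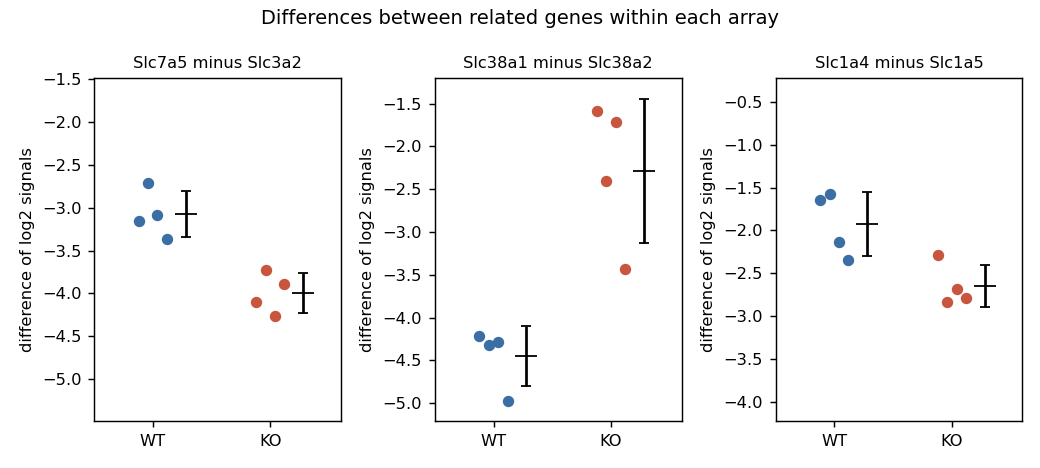
Difference of the log2 signals of 2 related genes on the same array (vertical axis) for 4 WT (blue) and 4 KO (red) arrays, with mean and SD in black. The genotypes do not overlap for Slc7a5 minus Slc3a2 and for Slc38a1 minus Slc38a2.

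Across the 8 arrays the called genes followed each other in part. As a description with no test, Pearson's r was -0.96 between Slc7a1 and Slc6a6, 0.92 between Slc38a1 and Slc6a6 and -0.92 between Slc38a1 and Slc7a1. After subtracting the genotype means r was -0.78, 0.60 and -0.63, so part of each value is the genotype difference itself. Slc7a5 and Slc3a2 had r = 0.27 over the 8 arrays and 0.70 after subtracting the genotype means. The genes most like each transporter in this sense were also sought among all genes tested. Slc7a1 was most like Mfsd2a (r = 0.994), a carrier of lysophosphatidylcholine lipids that differed by -3.80. Slc38a1 was most like Ptprs (r = 0.995), a receptor tyrosine phosphatase, and Slc6a6 most like Sgce (r = 0.995), a sarcoglycan. Slc7a5 was most like Mocs1 (r = 0.978), of molybdenum cofactor synthesis, and Slc38a2 most like Mnd1 (r = 0.968). These are the highest values among all genes tested, over only 8 arrays from 2 genotypes.

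A longer list of amino acid carriers gives the surroundings of the 9 genes. Of 51 other carriers, 35 were tested, and 2 were called higher and 5 lower, with a median difference of -0.02, and 10 were called with replicate number as a block. Slc38a3, which encodes the glutamine carrier SNAT3, had the largest difference of these 35. Its log2 signal was between 9.06 and 10.67 on WT arrays and between 7.01 and 7.75 on KO arrays, and it fell by 2.52 (SE 0.33, limma adjusted p = 0.00621). That call held under all 16 settings.

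The other called carriers came from the same SLC6 and SLC38 families, with 1 exception. Slc6a15, a carrier of proline and branched-chain amino acids, was higher by 2.19 (limma adjusted p = 0.0210), but it was well above background on only 1 WT array. With normexp background correction its difference was 0.51 and it was not called (limma adjusted p = 0.0558). Slc6a13, a GABA carrier that also takes taurine, fell by 1.5 (limma adjusted p = 0.0171), and by 0.67 with normexp (0.0215). Slc6a17, a vesicular carrier of neutral amino acids, fell by 1.15 (limma adjusted p = 0.0144) and was well above background on only 2 KO arrays. With normexp its difference was -0.21 and it was not called (limma adjusted p = 0.146). Slc6a14, a carrier of neutral and cationic amino acids, fell by 0.54 (limma adjusted p = 0.0183), a call that was lost with normexp (-0.18, limma adjusted p = 0.101). Slc38a10 also passed the test, lower in KO (limma adjusted p = 0.0395). Slc43a3, higher by 0.53 (limma adjusted p = 0.0225), is known to carry purine nucleobases, so its function is not that of the list. Among these 7, Slc38a3, Slc6a13 and Slc6a17 were called with any 1 array left out. The call of Slc43a3 was lost without WT array 2 or KO array 1, 2 or 3 (limma adjusted p = 0.0515 to 0.0699), and that of Slc38a10 without WT array 2, 3 or 4 or KO array 1, 2 or 3 (0.0710 to 0.107). Slc6a14 lost its call without KO array 3 (0.0577) and Slc6a15 without WT array 3 or KO array 3 (0.0508 and 0.0556). Of 10 tested proton-coupled, aromatic, peptide and lysosomal carriers, 0 were called by limma, and 1 had a 95% interval that excluded 0. The plot of all carriers sets the 9 genes beside these.

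**Figure D4:**
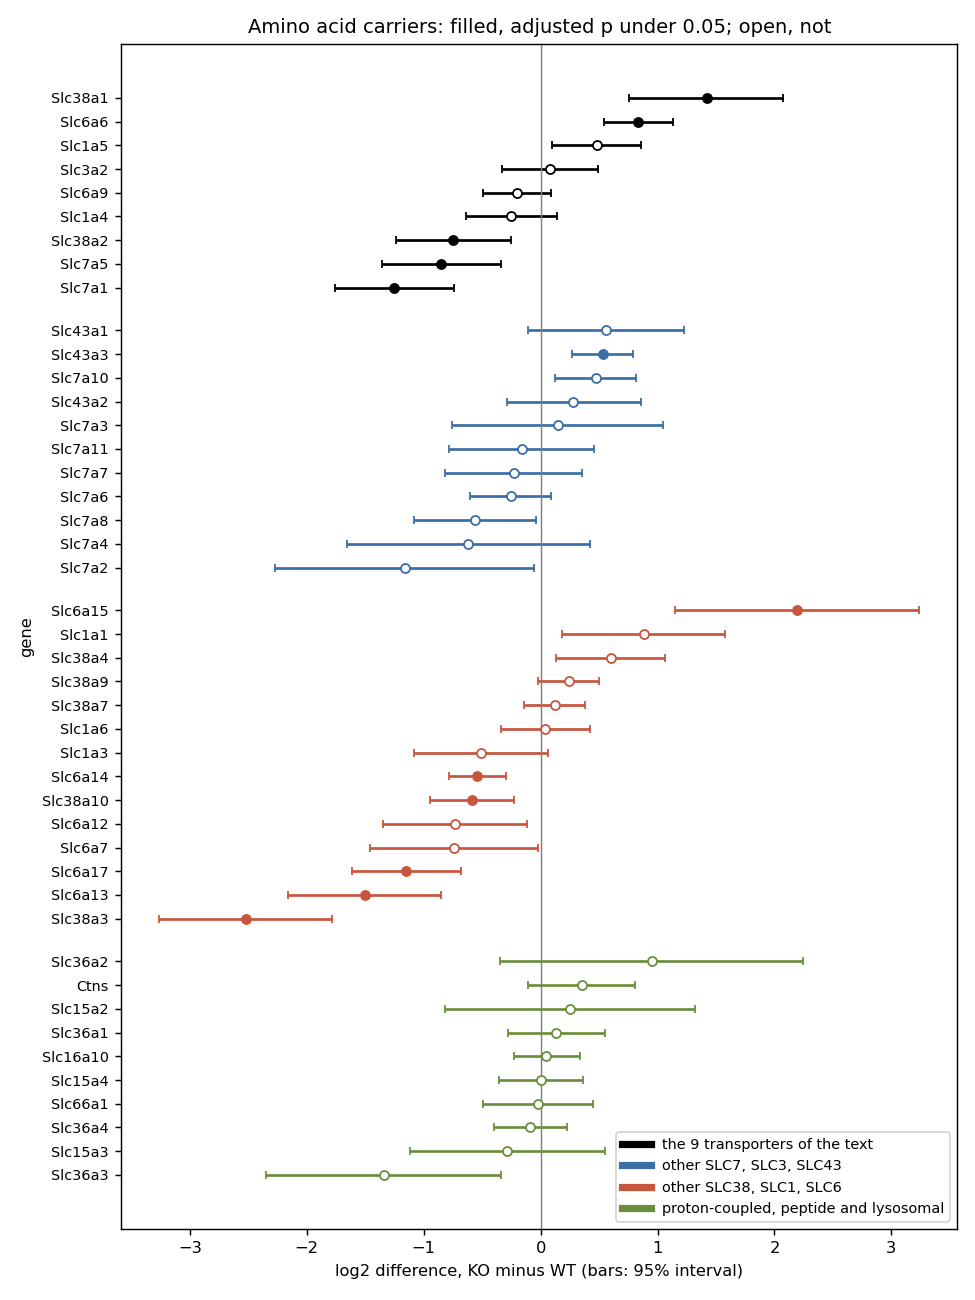
Difference between genotypes (horizontal axis, KO minus WT, log2) with 95% intervals for the 9 transporter genes (black) and 35 other tested carriers in 3 colours by family. Filled points have an adjusted p under 0.05, and Slc38a3 lies at -2.52. Slc6a15, at 2.19, was well above background on 1 WT array only.

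The genes that sense amino acids and regulate these carriers were listed too. Of 36, 34 were tested, and 2 were called higher and 4 lower, 17.6% of those tested beside 16.5% of all genes tested, with a median of -0.02. Nedd4l, a ubiquitin ligase that removes membrane transporters and channels from the cell surface, rose by 1.14 (SE 0.17, limma adjusted p = 0.00969), and its call held under all 16 settings. Sesn3, a sestrin that restrains mTORC1, rose by 1.04 (limma adjusted p = 0.0279). Eif2ak3, which encodes the kinase PERK, fell by 0.53 (limma adjusted p = 0.0196), and its substrate gene Eif2s1 fell by 0.59 (limma adjusted p = 0.0307). Rraga, a Rag GTPase that recruits mTORC1 to the lysosome, and Nprl2, of the complex that opposes it, were both called lower. With 1 array left out the calls were less steady for the other genes of this list. Sesn3 lost its call without WT array 2 or KO array 1 or 3, and Eif2ak3 without KO array 1, 2 or 3, with limma adjusted p up to 0.0760 and 0.0554. Eif2s1, Rraga and Nprl2 each lost theirs with 6 of the 8 arrays left out in turn, with limma adjusted p up to 0.0804, 0.113 and 0.0869. Atf4 differed by -0.25 (95% interval -0.59 to 0.09, limma adjusted p = 0.260).

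Enzymes that use the carried amino acids were lower on average in 25 of 32 tested, where 7406 of all 14137 genes were. Only 3 were called, all lower, 9.38% of those tested, beside 8.96% of all genes called lower. With replicate number as a block the count was 9, and that of all genes rose from 2331 to 2762. Got1, the cytosolic aspartate aminotransferase, fell by 1.14 (limma adjusted p = 0.0245), Bcat2, the mitochondrial branched-chain aminotransferase, by 1.08 (limma adjusted p = 0.0176), and Aldh18a1, which makes proline and ornithine precursors from glutamate, by 1.22 (limma adjusted p = 0.0343). The count of called enzymes was 8 without KO array 4, 1 without WT array 2 and 0 by limma without KO array 3. Aldh18a1 lost its call without WT array 2, 3 or 4 or KO array 1, 2 or 3 (limma adjusted p = 0.0639 to 0.0924), Got1 without WT array 2 or KO array 3 (0.0676 and 0.0550), and Bcat2 without KO array 3 (0.0554).

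Upstream sequences of the 9 genes were examined where the RefSeq promoter table of GRCm38.p6 holds them, which is 8 windows for 5 genes. Those of Slc38a2 and Slc7a1, the genes that fell and have a window, are printed here for the 250 bases before the annotated start, 5′ to 3′ on the strand of the gene. Slc38a2 lies on the minus strand at chr15:96699729-96699978 and this Slc7a1 start on the minus strand at chr5:148399905-148400154, with 72.0% and 62.4% GC.
Slc38a2: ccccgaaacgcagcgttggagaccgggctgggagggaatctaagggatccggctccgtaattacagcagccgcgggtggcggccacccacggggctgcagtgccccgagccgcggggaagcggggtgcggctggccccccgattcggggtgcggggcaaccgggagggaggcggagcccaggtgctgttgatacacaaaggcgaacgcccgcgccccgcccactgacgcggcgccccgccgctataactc
Slc7a1: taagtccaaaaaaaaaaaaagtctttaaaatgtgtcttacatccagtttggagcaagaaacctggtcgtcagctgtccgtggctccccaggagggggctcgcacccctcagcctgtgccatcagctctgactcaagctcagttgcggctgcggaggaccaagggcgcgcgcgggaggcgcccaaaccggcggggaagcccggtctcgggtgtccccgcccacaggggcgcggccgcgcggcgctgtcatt
Both strands of all windows were searched for TGATGNAA, the composite element bound by ATF4 with C/EBP partners, and for CACGTG, an E-box. The windows searched run from 250 bases before to 50 after the start. TGATGNAA was found in 3.97% of 32851 windows and in 1 of the 8 windows here, that of Slc1a4. It overlaps the annotated start on the opposite strand, shown in capitals in this 30-base stretch.
Slc1a4: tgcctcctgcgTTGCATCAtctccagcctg
CACGTG was in 7.15% of all windows and in 0 of these 8. These counts describe letters in the windows and say nothing of binding or of elements outside the windows.

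Levels in whole glands can change with the cells in them, and fewer cells of a type and less RNA per cell cannot be told apart. Of 10 luminal epithelium markers, 4 were called higher (Krt18, Epcam, Cdh1 and Cldn3) and 0 lower. The list mean log2 signal was between 13.31 and 13.68 on WT arrays and between 13.84 and 13.98 on KO arrays. On average 8 of the 10 were higher and 2 lower. The 2 were Elf5 (-0.35, limma adjusted p = 0.107) and Prlr (-0.20, limma adjusted p = 0.473). Slc38a1 and Slc6a6 moved in the direction of the 4 called markers and against that of Elf5 and Prlr. Slc7a1, Slc7a5 and Slc38a2 moved the other way. Of 8 adipocyte markers 2 were higher (Plin1 and Cfd, list mean 12.98 to 13.62 in WT and 13.44 to 13.68 in KO), and of 8 basal markers 1 was lower (Krt17, list mean 11.70 to 12.19 in WT and 11.64 to 11.86 in KO). Of 5 tested neutrophil markers 2 were higher, Camp and Ngp, at least 8.54-fold and 7.11-fold, since neither was well above background on any WT array, and the list mean, which takes in those dim WT signals, was 5.93 to 6.72 in WT and 8.23 to 9.38 in KO. Of 6 T cell markers 2 were lower (Cd3e and Cd4, list mean 6.28 to 7.44 in WT and 6.30 to 6.63 in KO). Cd79b of 4 B cell markers and Dcn of 6 fibroblast markers were higher, and 0 of 5 macrophage and 0 of 6 endothelium markers were called by limma (0 and 1 at an unadjusted p under 0.05). The part of these cells in the transporter differences was not tested.

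The plot of adjusted p by setting shows how far the 5 calls stood from the threshold. Slc7a1 and Slc6a6 were below the threshold in all 16 alternatives, Slc38a1 in 12, Slc7a5 in 8 and Slc38a2 in 7.

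**Figure D5:**
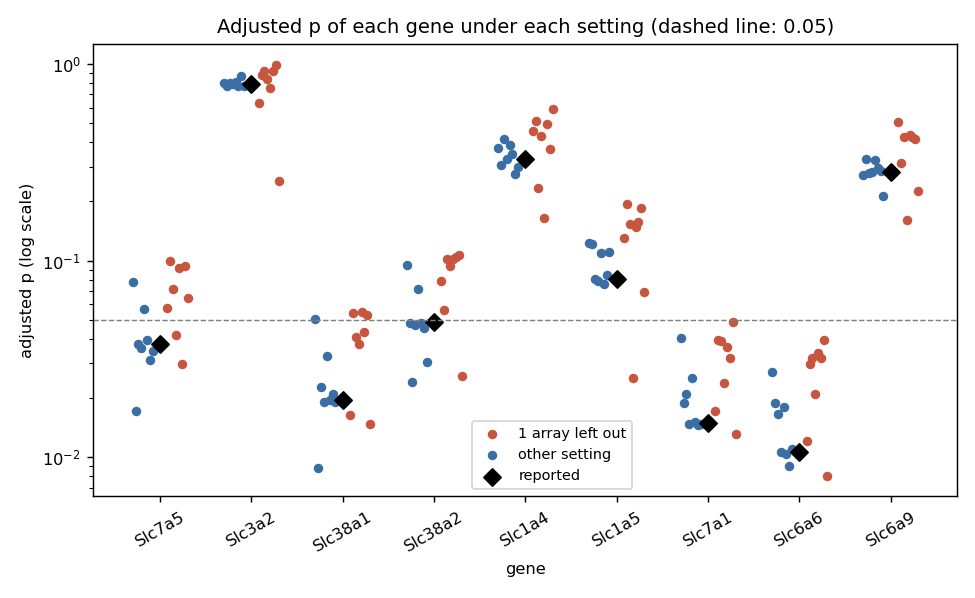
Benjamini-Hochberg adjusted p (vertical axis, log scale) of each of the 9 transporter genes as reported (black), under other processing settings (blue) and with 1 array left out (red), with 0.05 as a dashed line. All points of Slc7a1 and Slc6a6 are under the line, and those of Slc7a5 and Slc38a2 lie on both sides.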

How the data were processed

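Labelled cRNA from 4 WT and 4 KO glands was hybridized to one-colour Agilent arrays, and the authors deposited for each array the processed intensity of Feature Extraction 10.7, background-subtracted and not normalized between arrays. They also deposited a table of log2 values quantile-normalized in GeneSpring, used as an alternative. Log2 processed intensities of all spots but controls were quantile-normalized between arrays with limma 3.58.1 in R 4.3.3. Outlier spots were left out after that step. Of 41174 probes, 27479 matched a gene symbol by accession. Probes well above background on all 4 arrays of 1 genotype entered (27735), 67 matched probes lacking a value did not, and the brightest probe stood for a gene. limma with Benjamini-Hochberg adjustment covered 14137 genes and was tested on simulated data. The number of arrays limits precision. The labels call the arrays biological replicates. Same-numbered WT and KO arrays correlated at r = 0.16 to 0.30 in their deviations from the genotype means and differently numbered ones at -0.32 to 0.34, so the pairing is uncertain. The signs followed 2 sets of numbers. WT and KO arrays numbered 1 and 3 correlated at 0.22 to 0.34, and those numbered 2 and 4 at 0.11 to 0.28. Between the 2 sets r was -0.32 to -0.12. What the arrays of a set share was not tested. The reported fit has no block, and replicate number as a block is an alternative. The normexp alternative used the median signal, with an offset of 50. Named genes were all 9 transporters, called genes of the other lists, and the genes most correlated with a transporter, of which the text gives those of the 5 called ones. Slc38a4, Atf4, Lalba, Elf5, Prlr and Rptor were named after their values were seen. The members and lists were chosen with earlier results of these data known.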

Additional observations from a re-analysis of the deposited data

Results flagged for a closer look

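In 5 of 56 groups of 4 arrays, 1 array stood far from the other 3, where chance gives about 1 in 20. Slc38a1 minus Slc38a2 was -4.97 on WT array 4 and between -4.32 and -4.22 on the other WT arrays. Slc43a3 had a log2 signal of 10.63 on WT array 3, below 10.96 to 11.00 on the others. Slc6a15 reached 6.35 on KO array 4, above 4.76 to 5.0. Rraga was at 11.77 on WT array 1, below 11.97 to 12.01. Sesn3 was at 9.24 on WT array 2, below 10.01 to 10.12, and without that array its difference was 0.83 (limma adjusted p = 0.0533). These groups did not take in every listed gene. Rptor, of the sensing list and not called, was outside them. Its log2 signal was 1.67 on KO array 4 and between 10.39 and 10.53 on the other KO arrays. Its difference of -2.40 (SE 1.84, limma adjusted p = 0.376) includes that array. No single signal of the 9 transporter genes stood apart in this way.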

How the results depend on the processing

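The directions of the 5 called transporters held in all 16 alternatives, and that of Slc3a2, not called, turned to -0.07 with 75th percentile scaling, -0.03 without KO array 2 and -0.00 without KO array 3 (-0.03 to 0.23 over all arrays left out in turn). Of the 5 called transporters (2 higher, 3 lower), 3 were called with no filter on dim probes (1 of them lower), where 1766 of 18717 genes were called. By the methods' t-test with Benjamini-Hochberg adjustment 2 were called (1 higher, 1 lower). That t-test called 1389 of all genes in place of 2331 (593 higher, 796 lower), 2 member probes in place of 10 and 1 enzyme in place of 3. With replicate number as a block, 9 enzymes and 2762 of all genes were called, and the block changed no call among the 9 transporters. Leaving out each array in turn, the transporters called ranged from 2 to 5 (1 to 3 higher, 1 to 2 lower), their probes from 1 to 10, other carriers from 3 to 10 (7 with all arrays), sensing genes from 1 to 8 (6 with all arrays), enzymes from 0 to 8, and all genes from 515 to 3070 (266 to 1388 higher, 249 to 1682 lower). The count of all genes was 515 without KO array 3, 756 without KO array 1, 767 without WT array 2, 946 without KO array 2 and 983 without WT array 3. The transporters called were 2 without WT array 2, KO array 1 or KO array 3, and 3 without WT array 1 or 3. With normexp, Slc6a14 differed by -0.18, Slc6a15 by 0.51 and Slc6a17 by -0.21, and none of these 3 was called by limma (adjusted p = 0.101, 0.0558 and 0.146). The causes were not tested.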
